A study of Mus musculus with 70 samples.

Results

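Ly6a, Ly6d, Ly6e, Ly6c1 and Ly6c2 are 5 genes of the Ly6 family, chosen by name and matched by Entrez identifier (110454, 17068, 17069, 17067 and 100041546) in the deposited count tables. All 5 were among the 27179 genes listed, and all 5 were among the 10972 genes that passed the filter on low counts. The family encodes small, cysteine-rich proteins whose chain folds into finger-like loops and which are tethered to the outer face of the plasma membrane by a glycosylphosphatidylinositol (GPI) anchor. Several members are used as antibody targets to sort blood-forming cells: Ly6a encodes Sca-1, a marker of stem cells and of some activated lymphocytes, Ly6d marks common lymphoid progenitors that lean towards the B lineage, and Ly6c1 and Ly6c2 encode the Ly-6C antigen of monocytes, plasma cells and some T cells. Ly6e is a broadly expressed, interferon-inducible member.

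The study sorted 100 cells per sample from mouse bone marrow and measured polyadenylated RNA by CEL-seq, in which reads come mostly from the 3′ ends of transcripts. The wild-type groups were the common lymphoid progenitor (CLP, 8 libraries), CLP that carry the integrin a4b7 (a4b7 CLP, 5 libraries), the common innate lymphoid progenitor (CILP, 7 libraries), a population labelled ILCP (3 libraries) and the progenitor of group 2 innate lymphoid cells (ILC2P, 8 libraries). Mutant mice labelled TCF7-/- gave 5 CLP, 4 CILP and 2 ILC2P libraries, and mice labelled Id2-/- gave 2 CLP libraries, 2 CILP libraries and 1 ILCP library. These 47 libraries came from 2 batches, 22 in batch 1 and 25 in batch 2. The 2 TCF7-/- ILC2P libraries were all in batch 2 and the Id2-/- libraries all in batch 1. The labels give no strain, age or sex and do not describe the deleted alleles, and they do not say whether the replicates of a group came from separate animals, so the p-values measure only the spread between these samples, which may be technical. No label names the gate used for ILCP. The design text names a Sca1+ CILP population, and where such a gate was used the Ly6a level could be close to a selection criterion. The 7 wild-type CILP libraries nevertheless held only 10 Ly6a counts in 1520537, the lowest rate of the wild-type groups. How surface Sca-1 relates to this RNA was not tested.

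Library totals ran from 19322 to 624668 counts (median 134985). Levels below are CPM, counts scaled to a common library total, after adjustment by the trimmed mean of M values (TMM), given as mean ± SD over libraries. Differences come from edgeR's quasi-likelihood test with batch as a term, Benjamini-Hochberg adjusted over all 10972 genes, and a gene was called at an adjusted p under 0.05. The share of counts on group 2 ILC marker genes was 0.414% to 1.57% in wild-type ILC2P, 0.514% to 1.06% in ILCP and 0.161% to 0.583% in CILP. It was 0.00855% to 0.0628% in CLP. The lymphoid progenitor gene Flt3 was at 401 ± 147 CPM in CLP (n = 8) and at 0 counts in all 8 ILC2P libraries. The 7 listed lymphoid progenitor genes together took 0.562% to 1.55% in CLP, 0.335% to 0.612% in a4b7 CLP and 0.176% to 0.455% in ILC2P. Tcf7 was at 0 to 63.4 CPM in the 4 TCF7-/- CILP libraries and at 166 to 779 CPM in the 7 wild-type ones, without overlap, though the log2 difference of -3.55 missed the threshold (adjusted p = 0.157). The Tcf7 difference was 3.21 in CLP (adjusted p = 0.565) and 0.10 in ILC2P (adjusted p = 1), where wild type itself had few counts. Whether the 3′ tag lies outside the deleted part of the gene is not given, so these counts do not check the label. Id2 had 0 counts in both Id2-/- CLP libraries and 27.1 and 116 CPM in the Id2-/- CILP libraries, against 79.6 to 2286 CPM in wild-type CILP (adjusted p = 0.595). Libraries are named below by their genotype label.

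All 5 genes lie on chromosome 15 within 350.0 kb of each other. RefSeq places them on GRCm38.p6 (mm10) in the order Ly6d (chr15:74762056-74763567, minus strand), Ly6e (chr15:74955025-74959904, plus strand), Ly6a (chr15:74994877-74998031, minus strand), Ly6c1 (chr15:75044018-75048920, minus strand) and Ly6c2 (chr15:75108161-75112066, minus strand). No other GENCODE M21 gene overlaps any of the 5. The gap is 191.5 kb between Ly6d and Ly6e and 59.2 kb between Ly6c1 and Ly6c2.

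**Figure D1:**
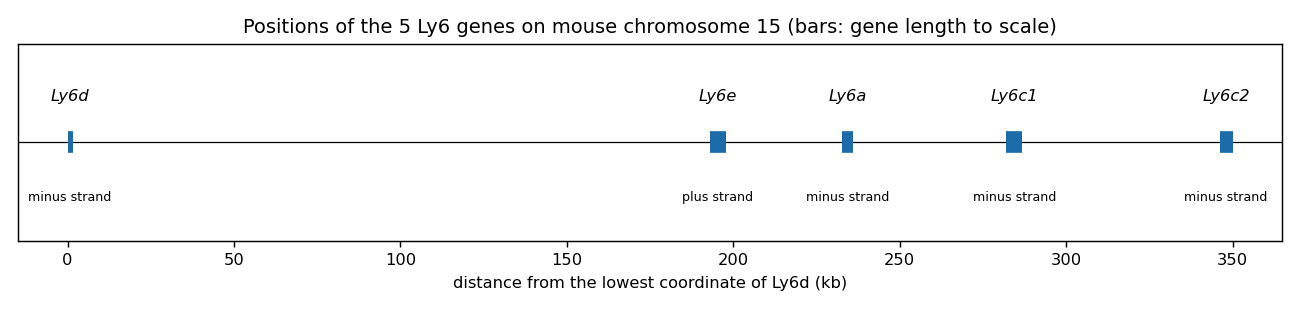
Map of the 5 Ly6 genes along chromosome 15, drawn to scale, with the distance in kb from the lowest coordinate of Ly6d on the x axis and each gene as a bar with its strand. Ly6d stands 191.5 kb apart from the next member, and Ly6e, Ly6a, Ly6c1 and Ly6c2 follow at gaps of 35.0, 46.0 and 59.2 kb.

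The coding sequences show which members could exchange reads. Ly6c1 and Ly6c2 are identical at 384 of 393 coding bases (97.7%), and Ly6a is 81.8% identical to Ly6c1 and 81.6% to Ly6c2. Every pair with Ly6d or Ly6e is between 49.9% and 53.5% identical. Among the 50-base windows in the last 500 bases of the principal transcripts, where CEL-seq tags fall, 34.0% of the Ly6c1 windows and 34.8% of the Ly6c2 windows also occur in another gene, nearly all of them in each other. The share is 3.8% for Ly6a, mostly shared with the neighbouring Ly6a2, and 0 of 451 windows for Ly6d and 0 of 1470 for Ly6e. The sources used here do not say how reads that match both Ly6c genes were counted, so the split between Ly6c1 and Ly6c2 is uncertain for any read from a shared window.

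RefSeq promoter windows were matched for 2 of the 5 genes, Ly6c1 and Ly6c2. They are shown because these near-copies had their higher values in different wild-type populations below, though no wild-type difference in Ly6c2 passed the test. Each line gives the 150 bases directly upstream of the RefSeq gene bounds given above, 5′ to 3′ on the minus strand of GRCm38.p6 (Ly6c1 chr15:75048921-75049070, Ly6c2 chr15:75112067-75112216). Capitals mark bases that differ from, or are missing in, the other window where they overlap in an alignment.
Ly6c1: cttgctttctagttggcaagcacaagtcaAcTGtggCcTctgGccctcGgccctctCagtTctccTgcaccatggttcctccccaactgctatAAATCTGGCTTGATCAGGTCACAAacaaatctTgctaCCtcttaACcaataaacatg
Ly6c2: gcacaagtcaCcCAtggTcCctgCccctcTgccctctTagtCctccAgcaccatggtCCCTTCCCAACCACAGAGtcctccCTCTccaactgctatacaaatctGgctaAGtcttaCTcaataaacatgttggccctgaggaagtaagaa

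The 2 windows overlap by 131 bases of Ly6c1 and 129 bases of Ly6c2 and are identical at 92 of 153 aligned columns (60.1%). Columns in which 1 window has a gap are among the 153 and count as not identical. The coding sequences (97.7%) fill 393 columns without a gap and were aligned with other penalties, so the 2 percentages are not on the same scale. Motifs were searched on both strands in these windows and in the 150 bases before each of the 32851 starts in the RefSeq promoter table. The E-box CANNTG, the motif of the E proteins that Id2 binds, was found 2 times in the Ly6c1 window and 1 time in the Ly6c2 window, and 47.7% of all windows hold it. The TCF/LEF core ACAAAG (in 9.9% of all windows) and TTCNNNGAA for STAT factors (4.1%) were in neither window. These are matches of letters in a window and no binding was measured.

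Ly6d had the widest range of the 5 genes. In wild-type CLP the 8 libraries ran from 1845 to 5970 CPM with a median of 2935 CPM (3364 ± 1472, SD, n = 8). The 5 a4b7 CLP libraries had 3110, 4320, 1672, 4321 and 5986 CPM (3882 ± 1604, n = 5). These ranges overlap, and the difference was 0.21 on the log2 scale (95% interval -1.66 to 2.09, adjusted p = 1).

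Downstream of CLP, Ly6d was at or near 0 in most libraries. The 7 CILP libraries ran from 0 to 208 CPM with a median of 0, and 3 of 7 had any count. The 3 ILCP libraries had 138, 0 and 101 CPM, and 1 of 8 ILC2P libraries had any count, with 2 counts (69.0 CPM). No library of these 3 populations reached the lowest CLP library.

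Against CLP, Ly6d fell by 5.58 on the log2 scale in CILP (SE 1.08, adjusted p = 0.00124) and fell by 9.38 in ILC2P (SE 1.38, adjusted p = 1.32e-05). With 2 counts in ILC2P the fitted fold depends on those counts: the pooled rate was 671-fold higher in CLP, with an exact interval of 186 to 5543 that covers counting error only. The ILCP value was a log2 difference of -5.28 (SE 1.55, 3 libraries) and missed the threshold (adjusted p = 0.057). Against a4b7 CLP, Ly6d fell by 5.80 in CILP (adjusted p = 0.00214) and fell by 9.60 in ILC2P (adjusted p = 1.5e-05). Among CILP, ILCP and ILC2P no difference in Ly6d passed the test (adjusted p = 0.994, 0.116 and 0.273 for ILCP against CILP, ILC2P against CILP and ILC2P against ILCP). In these 100-cell pools, fewer cells that carry a transcript and less of it per cell cannot be told apart.

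Within batches the CILP difference had the same direction. Batch 1 had Ly6d at 0 counts in its 3 CILP libraries and at 3865 to 5970 CPM in its 3 CLP libraries. Batch 2 had 0 to 208 CPM in CILP and 1845 to 3293 CPM in CLP, a log2 difference of -4.54 that missed the threshold alone (adjusted p = 0.166). The call of Ly6d in CILP against a4b7 CLP was lost in each batch alone (adjusted p = 0.0726 in batch 1 and 0.258 in batch 2). The 56 counts of CILP replicate 1 came from 2 of its 3 technical replicates: 0 of 169683 counts in the parent sample, 49 of 85470 in a repeat and 7 of 77362 in the other. The labels do not say which step was repeated. In CLP replicate 2, the parent and its repeats had Ly6d at 1923, 3032 and 885 CPM without TMM, with counting intervals that did not overlap. Ly6a was at 489, 173 and 53.6 CPM there, and the Ly6e intervals overlapped. Technical replicates can thus differ by more than the counting error that the exact intervals cover.

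**Figure D2:**
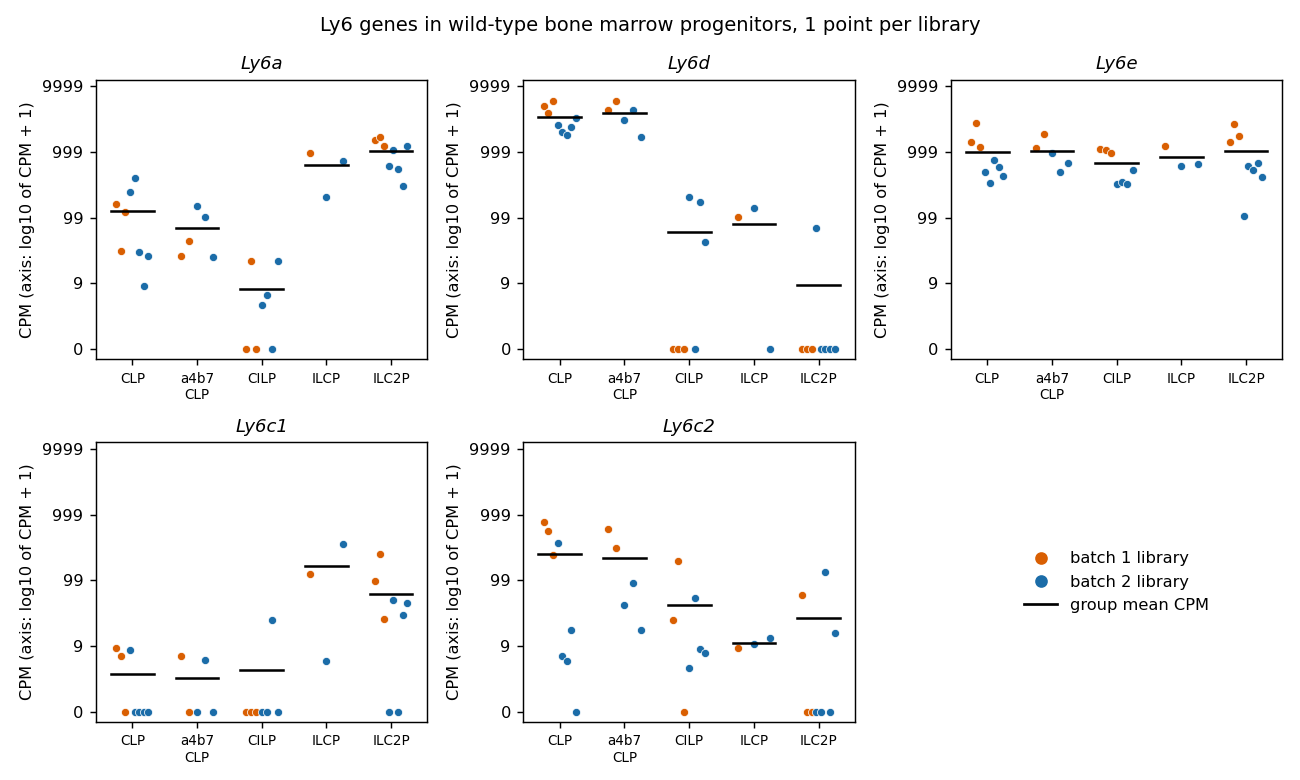
CPM of each Ly6 gene in every wild-type library, on an axis of log10(CPM + 1), by population, with batch 1 in orange, batch 2 in blue and the group mean as a line. Ly6d is at or above 1672 CPM in every CLP and a4b7 CLP library and at or below 208 CPM in the others, Ly6a is highest in ILCP and ILC2P, and Ly6e differs by batch within each population.

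Ly6a moved the other way in the later populations, with its low point in CILP, though the design text names a Sca1+ CILP population. The 8 CLP libraries ran from 8.2 to 399 CPM with a median of 75.8 (128 ± 138, n = 8), and the a4b7 CLP libraries had 150, 102, 24.6, 24.8 and 42.8 CPM (68.8 ± 55.4, n = 5). The 7 CILP libraries ran from 0 to 21.0 CPM with a median of 3.7, from 10 counts in all. Every a4b7 CLP library lay above every CILP library, whereas CLP and CILP overlapped at the low end.

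In ILCP the 3 libraries had 202, 727 and 959 CPM (630 ± 388, n = 3), and in ILC2P the 8 libraries ran from 302 to 1707 CPM with a median of 1147 (1033 ± 496, n = 8). Each ILCP and ILC2P library was above each CILP library, and the ILCP and ILC2P ranges overlapped. ILCP replicate 1, the lowest of the 3 for Ly6a and Ly6c1 and the highest for Ly6d, had 1.2% of its counts on erythroid and megakaryocyte markers (10 of 13 detected), where the other ILCP libraries had none. Of these 13 markers, 4 were called higher in ILCP against CLP, where 2.61% of all genes were called. The part of these markers in the ILCP values was not tested. In order of mean level, ILC2P and ILCP (adjusted p = 0.827), ILCP and CLP (0.11) and CLP and a4b7 CLP (0.938) were neighbours that did not pass the test. Only the last step in that order, a4b7 CLP to CILP, passed (adjusted p = 0.035).

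Ly6a fell by 3.91 on the log2 scale in CILP against CLP (SE 0.81, adjusted p = 0.00123), a fitted 15.1-fold difference. It rose by 6.15 in ILCP against CILP (SE 0.92, adjusted p = 1.39e-05) and by 6.86 in ILC2P against CILP (SE 0.88, adjusted p = 9.7e-08). ILC2P was also above CLP by 2.95 (adjusted p = 0.00158) and above a4b7 CLP by 3.79 (adjusted p = 0.00152), while ILCP against CLP (2.23) and against a4b7 CLP (3.08) missed the threshold (adjusted p = 0.11 and 0.0603). Without ILCP replicate 1 these were 2.67 (adjusted p = 0.0836) and 3.54 (adjusted p = 0.0393), the second then past the threshold. In batch 2 alone the ILC2P differences were 2.46 from CLP (adjusted p = 0.0625) and 3.07 from a4b7 CLP (adjusted p = 0.0772). The call of Ly6a in CILP against a4b7 CLP (log2 difference -3.07) was lost in each batch alone, with DESeq2 size factors and without any of 7 single libraries: a4b7 CLP replicate 1 or 2, or CILP replicate 1, 2, 3, 5 or 7, with adjusted p between 0.0505 and 0.119 in these 7 fits.

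Ly6c1 was rare in the early populations and detected in most later libraries. Counts of 1 were found in 3 of 8 CLP libraries, and a4b7 CLP and CILP also held 3 counts each in all. The 3 ILCP libraries had 4.9, 363 and 126 CPM, and the 8 ILC2P libraries ran from 0 to 247 CPM with a median of 36.6 (61.4 ± 81.1, n = 8). In ILC2P, 6 of 8 libraries had counts, and the lowest libraries of ILCP and ILC2P overlapped CLP.

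Ly6c1 rose by 5.62 on the log2 scale in ILCP against CLP (SE 1.39, adjusted p = 0.0087) and by 4.07 in ILC2P against CLP (SE 1.21, adjusted p = 0.0181). The pooled rate was 38.5-fold higher in ILCP than in CLP (counting interval 12.4 to 194). Against a4b7 CLP the ILCP difference passed (5.71, adjusted p = 0.0445) and the ILC2P difference did not (4.15, adjusted p = 0.0503). Against CILP neither passed (5.37, adjusted p = 0.0646 for ILCP, and 3.81, adjusted p = 0.0614 for ILC2P). ILCP replicate 2 held 30 of the 46 ILCP counts: without it the difference from CLP was 3.84 (adjusted p = 0.31) and that from a4b7 CLP 3.92 (adjusted p = 0.431). The call against a4b7 CLP was also lost without any 1 of the 5 a4b7 CLP libraries (adjusted p = 0.0906 to 0.139) or ILCP replicate 3 (adjusted p = 0.0804), and without the batch term (5.64, adjusted p = 0.072). Within batches the ILCP difference from CLP was 4.35 in batch 1, which has 1 ILCP library (adjusted p = 0.449), and 6.39 in batch 2 (adjusted p = 0.12). Without ILC2P replicate 7, which held 20 of 39 counts, the ILC2P difference from CLP was 3.37 (adjusted p = 0.0665), and it also missed the threshold in batch 1 alone (4.32, adjusted p = 0.154) and batch 2 alone (3.65, adjusted p = 0.185).

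Ly6c2 had its higher values in CLP and a4b7 CLP, and no wild-type difference in it passed the test. The 8 CLP libraries ran from 0 to 772 CPM with a median of 129 (248 ± 300, n = 8), and the a4b7 CLP libraries had 42.03, 91.4, 16.4, 613 and 311 CPM. The CILP libraries ran from 0 to 196 CPM with a median of 7.9, the ILCP libraries had 9.9, 12.1 and 8.4 CPM (1 or 2 counts each), and 3 of 8 ILC2P libraries had counts, up to 133 CPM. All these ranges overlapped those of CLP. Myeloid cell markers took 0.00694% to 0.115% of the counts in CLP and 0.0496% to 0.945% in a4b7 CLP, with up to 13 of 17 detected there. They took 0% to 0.162% in CILP, 0.00544% to 0.0152% in ILCP and 0% to 0.512% in ILC2P. The part of these markers in the Ly6c2 values was not tested.

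The log2 difference of Ly6c2 from CLP was -2.29 in CILP (95% interval -4.46 to -0.13, adjusted p = 0.255), -3.82 in ILCP (adjusted p = 0.303) and -2.92 in ILC2P (adjusted p = 0.12). Batch touched this gene: CLP libraries had 242 to 772 CPM in batch 1 and 0 to 368 CPM in batch 2. In batch 1 alone Ly6c2 fell by 4.70 in ILC2P against CLP (adjusted p = 0.00028), where 1 of 3 ILC2P libraries had counts.

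Set side by side, the pooled counts of the Ly6c pair were split differently between the wild-type populations, a description without a test. Ly6c1 gave 3 counts in CLP against 259 from Ly6c2 (1.15% of Ly6c counts, exact interval 0.237% to 3.31%), 1.33% in a4b7 CLP and 4.69% in CILP (0.977% to 13.1%). It gave 92.0% in ILCP (80.8% to 97.8%) and 78.0% in ILC2P (64.0% to 88.5%). By library, Ly6c2 had more counts in 7 of 8 CLP libraries and 5 of 5 a4b7 CLP libraries. In CLP replicates 2, 3 and 4 this rests on 1, 1 and 2 Ly6c2 counts and no Ly6c1 count. In CILP, Ly6c2 had more in 5 of 7 libraries and Ly6c1 in 1. Ly6c1 had more in 6 of 8 ILC2P libraries, with 2 to 20 counts each, and in 2 of 3 ILCP libraries. ILCP replicate 2 alone held 30 of the 46 Ly6c1 counts of ILCP. The intervals cover counting error only, and the shared windows described above touch both counts.

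**Figure D3:**
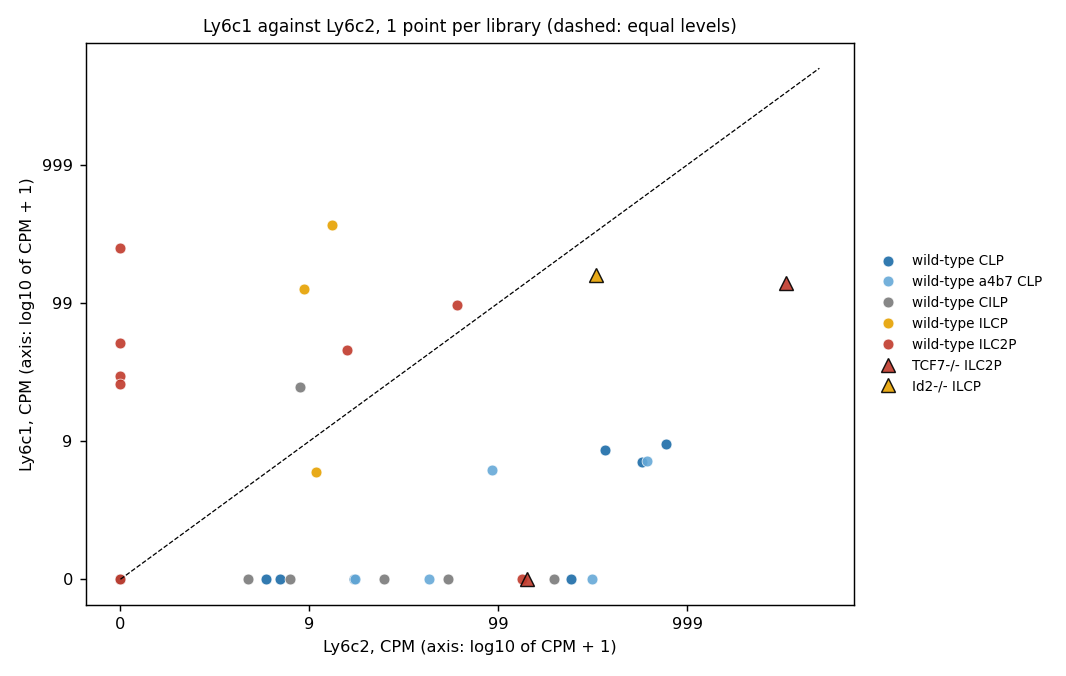
CPM of Ly6c1 (y axis) against Ly6c2 (x axis) in each library of the groups shown, both axes as log10(CPM + 1), with circles for wild type, triangles for TCF7-/- ILC2P and Id2-/- ILCP and a dashed line at equal levels. CLP and a4b7 CLP libraries lie below the line or at it, 6 of 8 ILC2P libraries and 2 of 3 ILCP libraries lie above it, and the TCF7-/- ILC2P and Id2-/- ILCP libraries lie below it.

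Ly6e was detected in every wild-type library of the 5 populations and was called in no comparison. Its means were 1004 ± 813 CPM in CLP (n = 8), 1034 ± 540 in a4b7 CLP (n = 5), 668 ± 366 in CILP (n = 7), 842 ± 357 in ILCP (n = 3) and 1018 ± 851 in ILC2P (n = 8). The 3 ILCP libraries had 617, 654 and 1254 CPM. All neighbours in this order overlapped, and the largest wild-type difference was -0.77 on the log2 scale, for CILP against a4b7 CLP (95% interval -1.56 to 0.03, adjusted p = 0.357).

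Within each wild-type population, Ly6e differed by batch. In CLP the batch 1 libraries had 1212 to 2778 CPM and the batch 2 libraries 340 to 753, in CILP the ranges were 951 to 1104 and 325 to 523, and in ILC2P they were 1430 to 2647 and 104 to 676. In a4b7 CLP they were 1139 to 1891 and 491 to 961, and in ILCP the single batch 1 library had 1254 CPM. In none of the 5 wild-type populations did the batch ranges of Ly6e overlap. The batch is part of the model, and what differed between the batches is not given in the labels.

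Read against all genes, the members' calls were as follows. In CILP against CLP 2 members were called lower (Ly6d, Ly6a) where 4.31% of all genes were called, and in ILCP against CLP 1 was called higher (Ly6c1) where 2.61% were. In ILC2P against CLP 2 were higher (Ly6a, Ly6c1) and 1 lower (Ly6d), where 11.5% of genes were called. Against a4b7 CLP, 2 were lower in CILP (2.35% of all genes called), 1 was higher in ILCP (1.51%), and 1 was higher and 1 lower in ILC2P (9.07%). Ly6a alone was called in ILCP against CILP (0.374%) and in ILC2P against CILP (5.32%). No member was called in a4b7 CLP against CLP (0.0456%) or in ILC2P against ILCP (0.483%), and those comparisons with a shared reference group are not independent of each other.

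**Figure D4:**
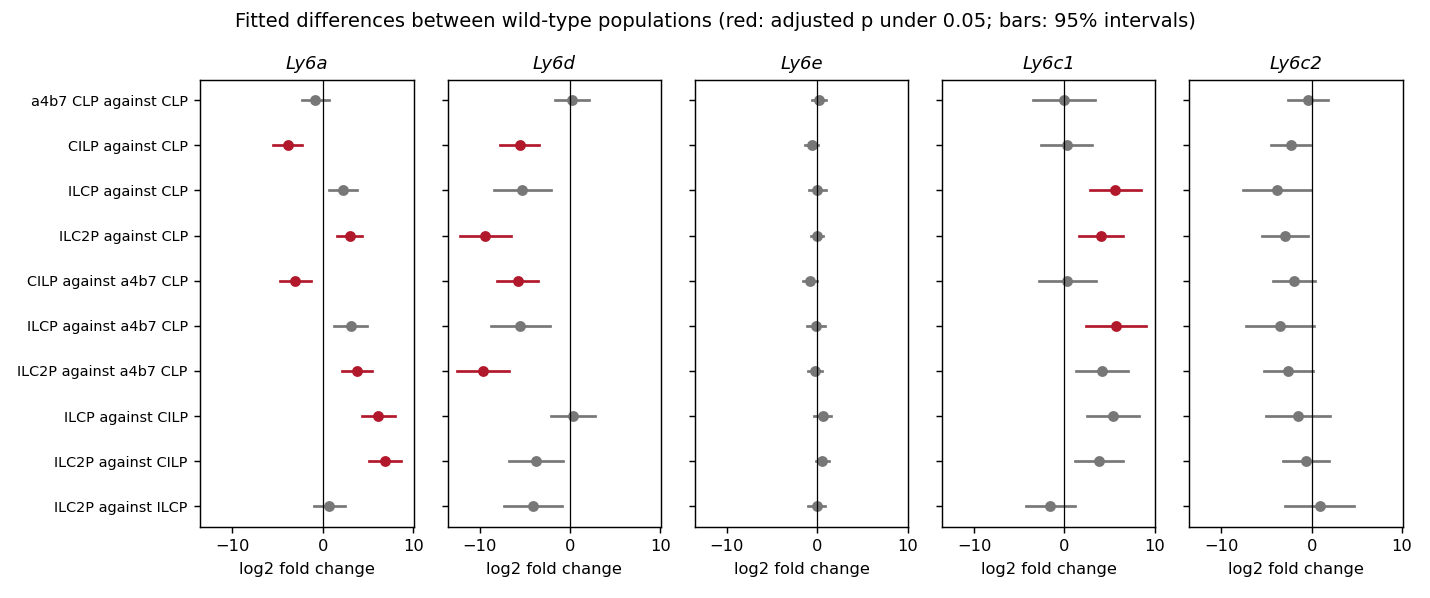
Fitted log2 fold changes of each Ly6 gene (x axis) in the 10 comparisons between wild-type populations (y axis), with 95% intervals as bars and called differences in red. Ly6d points to lower values after CLP and a4b7 CLP, and Ly6a is lowest in CILP. Ly6c1 is called higher in ILCP against CLP and a4b7 CLP and in ILC2P against CLP, and not against CILP. The Ly6e intervals are the narrowest and all include 0.

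The TCF7-/- CLP libraries overlapped wild-type CLP for all 5 members. Ly6d was at 2342, 1334, 1182, 3960 and 3692 CPM in the 5 TCF7-/- CLP libraries, 2 of them below the wild-type minimum of 1845, with a log2 difference of -0.47 (95% interval -2.39 to 1.46, adjusted p = 1). Ly6a had 322, 0, 105, 90.5 and 224 CPM (difference 0.14, adjusted p = 1) and Ly6c2 134, 0, 32.7, 214 and 149 CPM (difference -1.12, adjusted p = 0.974). No gene at all was called by edgeR's quasi-likelihood test in this comparison (0 of 10972, 0%), where 713 genes had an unadjusted p under 0.05 and DESeq2 called 0.

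In TCF7-/- CILP, Ly6d had 420, 0, 0 and 1174 CPM, so 2 of 4 libraries lay above the whole wild-type CILP range and 2 held no count. The log2 difference of 2.42 (95% interval 0.14 to 4.71) missed the threshold (adjusted p = 0.418). Ly6c2 followed the same libraries, with 60.0, 0, 0 and 445 CPM, and Ly6a had 0, 3.2, 0 and 107 CPM. No member was called, where 0.501% of all genes were.

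Other cell types' genes were also high in those libraries. Replicates 1 and 4, the 2 with Ly6d counts, had 1.10% and 1.08% of their counts on myeloid markers and 1.32% and 3.72% on erythroid and megakaryocyte markers, against 0.00157% to 0.109% and 0.0298% to 0.178% in replicates 2 and 3. Of the 17 myeloid markers 8 and 9 were detected in replicates 1 and 4, and of the 13 erythroid and megakaryocyte markers 7 and 9. Replicate 2, with no Ly6d count, detected 9 and 12 of them at those lower shares. The corresponding wild-type CILP maxima were 0.162% and 0.152%. In the comparison of TCF7-/- with wild-type CILP, 5 of 18 tested early B lineage genes were called higher and 0 lower, with a median log2 difference of 3.94 against -0.32 over all genes, and Blk, Blnk and Igll1 had the smallest adjusted p (0.00115, 0.0144 and 0.0294). The part of these other genes in the Ly6 values was not tested.

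In TCF7-/- ILC2P, Ly6d and Ly6c2 were the members called. Ly6d had 1674 and 296 CPM (207 and 61 counts) in the 2 libraries, both above the highest of the 8 wild-type ILC2P libraries (69.0 CPM). Ly6c2 had 3341 and 141 CPM (413 and 29 counts), where wild type reached 133 CPM. For Ly6c2 the order of replicate 2 depends on the scaling: by plain CPM, without TMM, the mutant libraries had 1638 and 117 and the highest wild-type library had 192. Ly6d stayed above wild type by plain CPM (821 and 245, against at most 104). The fitted differences were 7.75 for Ly6d (SE 1.54, adjusted p = 0.00281) and 7.02 for Ly6c2 (SE 1.49, adjusted p = 0.00463). Of all genes, 2.57% were called in this comparison, 279 of them higher and 3 lower. The mutant libraries held 252100 and 248697 counts, and the wild-type ILC2P libraries 19322 to 80873. The part of this difference in depth in the calls was not tested.

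Both calls were lost without replicate 1, a fit in which the 1 remaining mutant library is assumed to vary like the other groups. The difference was then 6.02 for Ly6d (adjusted p = 0.118) and 3.36 for Ly6c2 (adjusted p = 0.572), and with batch 2 alone, the batch of both mutant libraries, they were 6.79 (adjusted p = 0.0996) and 6.04 (adjusted p = 0.0578). That library had 20.3% of its counts on plasma and mature B cell markers, led by Igha and Jchain, with 11 of 12 markers detected and Sdc1 at 0, against 0.12% in replicate 2 and 0.00854% to 0.153% in wild-type ILC2P. It also had 0.942% on myeloid markers and 0.854% on erythroid and megakaryocyte markers, against 0.00322% and 0.0129% in replicate 2 and wild-type maxima of 0.512% and 0.129%. Replicate 2 in turn had 0.811% on mature T and NK cell markers (12 of 13 detected), against 0.0444% in replicate 1 and a wild-type maximum of 0.108%. Of the tested T and NK markers, 3 of 11 were called higher in this comparison. Group 2 ILC genes took 0.133% of its counts and 0.632% in replicate 2, against a wild-type range of 0.414% to 1.57%. The part of these other genes in the Ly6 values was not tested.

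The other members were not called in TCF7-/- ILC2P. Ly6a had 2896 and 971 CPM, the first above the wild-type maximum of 1707 with TMM scaling but not by plain CPM, at 1420 against 2022 (difference 1.05, adjusted p = 0.639), and Ly6e had 1052 and 1626 CPM (difference 1.30, 95% interval 0.27 to 2.32, adjusted p = 0.178). Both Ly6e values were above the wild-type ILC2P range of the same batch, 104 to 676 CPM, though by plain CPM replicate 1 (516) was inside it. Ly6c1 had 138 and 0 CPM (17 and 0 counts). Ly6c1 therefore gave 17 Ly6c counts against 442 from Ly6c2 (3.7%, exact interval 2.17% to 5.86%), against 78.0% in wild-type ILC2P.

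**Figure D5:**
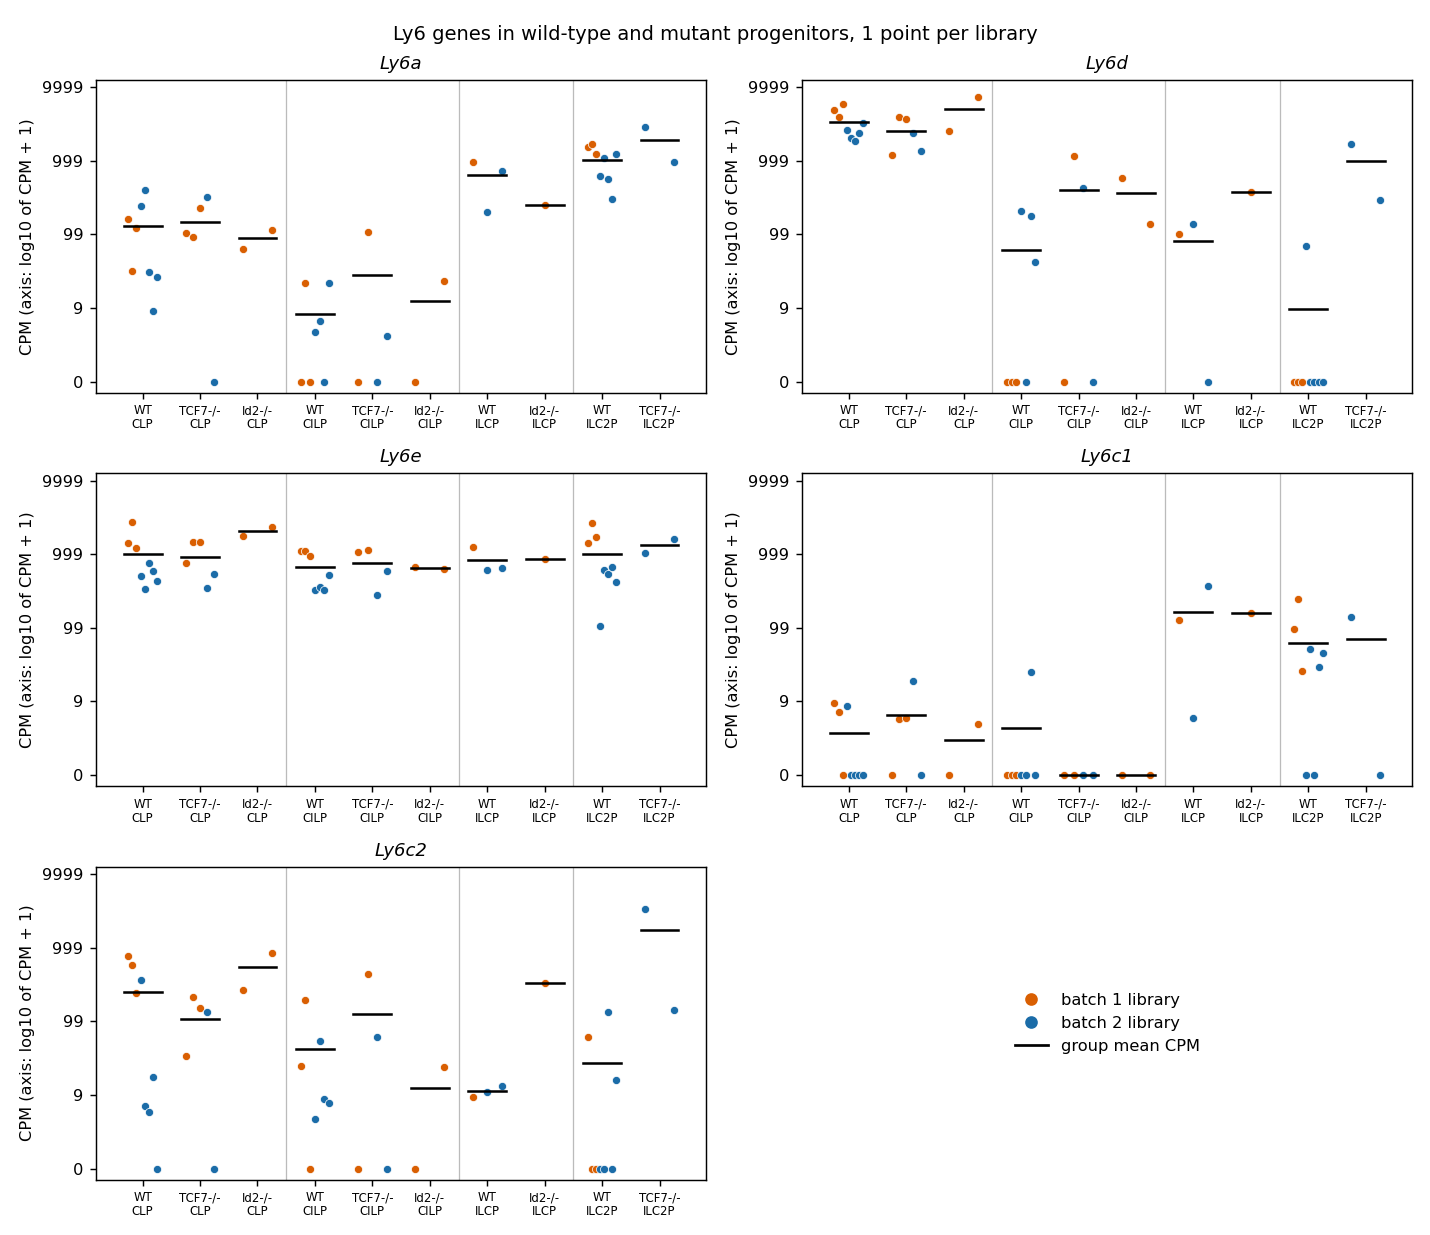
CPM of each Ly6 gene in wild-type, TCF7-/- and Id2-/- libraries, on an axis of log10(CPM + 1), by population, with batch 1 in orange, batch 2 in blue and the group mean as a line. The 2 TCF7-/- ILC2P libraries stand above all wild-type ILC2P libraries for Ly6d (296 and 1674 CPM) and Ly6c2 (141 and 3341 CPM), Ly6c2 replicate 2 only with TMM scaling.

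In Id2-/- CLP the members kept levels in or near the wild-type range. Ly6d had 2549 and 7408 CPM, the second above the wild-type maximum of 5970, and Ly6e had 1791 and 2324 CPM, inside the wild-type batch 1 range of 1212 to 2778. Ly6c2 had 269 and 834 CPM and Ly6a 62.0 and 115 CPM. No member was called, where 0.0365% of all genes were, and the 95% interval for Ly6d was -2.17 to 3.06 on the log2 scale. Dendritic cell markers took 1.02% to 1.16% of the counts (wild-type CLP 0.105% to 1.017%). Early B lineage genes took 0.513% to 0.535% (wild type 0.674% to 1.67%) and lymphoid progenitor genes 0.441% to 0.466% (0.562% to 1.55%). Shares of myeloid markers and of erythroid and megakaryocyte markers were inside the wild-type range. The part of these genes in the Ly6 values was not tested.

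In Id2-/- CILP, Ly6d had 588 and 136 CPM, while the 3 wild-type CILP libraries of the same batch had 0 counts. The log2 difference over both batches was 2.24 (95% interval -0.53 to 5.01, adjusted p = 0.869). Ly6a had 0 and 22.6 CPM and Ly6c1 had no count in either library. Ly6e had 662 and 633 CPM, below the 951 to 1104 CPM of wild-type CILP in the same batch, with a log2 difference of -0.75 over both batches (adjusted p = 0.958). These libraries had 0.265% and 0.324% of their counts on erythroid and megakaryocyte markers (wild-type CILP maximum 0.152%) and 0.119% and 0.121% on stem and multipotent progenitor genes (maximum 0.0572%). Innate lymphoid progenitor genes took 0.132% and 0.106%, against 0.648% to 0.873% in wild type. The part of these genes in the Ly6 values was not tested. No member was called, where 0.0911% of all genes were.

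The single Id2-/- ILCP library was not tested against wild type. It had 373 CPM of Ly6d (wild-type ILCP 0 to 138), 252 CPM of Ly6a (202 to 959), 858 CPM of Ly6e (617 to 1254), 159 CPM of Ly6c1 (4.9 to 363) and 326 CPM of Ly6c2 (8.4 to 12.1). Ly6d and Ly6c2 were thus above all 3 wild-type libraries. The library had 1.47% of its counts on myeloid markers (13 of 17 detected) and 1.86% on erythroid and megakaryocyte markers (8 of 13 detected), against wild-type ILCP ranges of 0.00544% to 0.0152% and 0% to 1.2%. The part of these markers' cells in the Ly6 values was not tested.

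The step from CLP to CILP was compared between genotypes through interaction terms. No member's step differed from wild type in TCF7-/- mice (0.0456% of all genes called) or in Id2-/- mice (0.0365%). For Ly6d the difference of steps was 2.89 in TCF7-/- (95% interval -0.08 to 5.86, adjusted p = 0.557) and 1.801 in Id2-/- (-2.05 to 5.65, adjusted p = 1).

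Over the 31 wild-type libraries, the genes whose log2(CPM + 1) was most like each member's are given as a description, since the points share populations, depth and batch. Ly6d was most like Cox6a2 (Pearson r = 0.93), Tsc22d1 (0.92), Macroh2a1 (0.91), Flt3 (0.91), which encodes the cytokine receptor of early lymphoid progenitors, and Hhex (0.90), with r between 0.87 and 0.97 inside each batch. Flt3 went from 401 CPM in CLP to 3.7 in CILP and 0 in ILC2P. Ly6a was most like Il1rl1 (0.80), the IL-33 receptor gene of group 2 cells, Samhd1 (0.80), Il2ra (0.78), Rnf128 (0.76) and Gbp4 (0.76), with within-batch r of 0.65 to 0.92. Il1rl1 was at 1103 CPM in ILCP, 991 in ILC2P and 1.0 in CILP.

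Ly6c1 was most like Cpne7 (0.78), Prdm1 (0.77), which encodes the transcription factor Blimp-1, Vipr2 (0.76), Ptgir (0.75) and Radx (0.74). Ly6c2 was most like Cep162 (0.74), Mn1 (0.73), Ctsh (0.73), Pdik1l (0.71) and Bmp2k (0.70). The genes most like Ly6e were U2af1 (0.81), Rhoa (0.78), Eef1g (0.78), Ccnd2 (0.78) and Ash1l (0.75), but the values differed between the batches: U2af1 had r = 0.70 in batch 1 and 0.12 in batch 2, and Rhoa had -0.17 and 0.70. Eef1g, Ccnd2 and Ash1l had 0.20 to 0.30 in batch 1 and 0.58 to 0.74 in batch 2. Between members, r was 0.58 for Ly6a and Ly6c1 (0.82 in batch 1 and 0.39 in batch 2), 0.42 for Ly6d and Ly6c2 (0.75 and 0.16) and -0.16 for Ly6c1 and Ly6c2 (-0.37 and -0.09).

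The rest of the family was close to silent in these libraries. Of 38 other Ly6/uPAR genes listed, 37 were in the tables, 23 of them had 0 counts and 4 passed the filter (Ly6k, Ly6g5b, Cd59a and Cd177). Ly6k was the only one called between wild-type populations: it was at 52.0 ± 99.3 CPM in CLP (n = 8, 52 counts in 4 libraries) and at 0 counts in ILC2P, with adjusted p = 0.0176 against CLP and 0.0387 against a4b7 CLP. Of the 28 genes in the tables that build and attach the GPI anchor, 18 were tested and none was called in any comparison, where 0% to 11.5% of all genes were called.

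Interferon-responsive genes, listed because Ly6e and Ly6a are known to be interferon-inducible, were called in both directions. In CILP against CLP, where 4.31% of all genes were called, 1 of 29 tested was higher and 3 were lower, including Bst2 (log2 difference -3.40, adjusted p = 0.00348) and Ifitm3 (-5.39, adjusted p = 0.00527), and the median was -0.88 against 0.06 over all genes. In ILC2P against CLP (11.5% of all genes called) 2 were higher, Gbp2 (3.63, adjusted p = 0.00701) and Zbp1 (4.90, adjusted p = 0.0094), and 3 were lower. Of the early B lineage genes tested, 10 of 18 were lower and 0 higher in CILP against CLP (median -4.22 against 0.06), 5 were lower and 1 higher in ILCP against CLP (median -2.91 against -0.17, 2.61% of all genes called), and 8 were lower and 0 higher in ILC2P against CLP (median -3.13 against -0.43).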

How the data were processed

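RNA from 100-cell sorts was measured by CEL-seq. The authors deposited an unnormalized count for each Entrez gene, and per the submitters' processing notes the authors used CASAVA 1.8.2, mm10, featureCounts, limma and edgeR (3.8.2 and 3.22.0). No aligner, strand setting or molecular identifier is named in the labels, so intervals cover counting error only. Gene names were matched for 25275 of 27179 identifiers. Technical repeats were summed, which left 66 libraries of 70 samples. Of these, 12 control wells, 6 libraries that the labels set aside after a failed knockout and 1 outlier library were left out. The remaining 47 libraries were fitted with edgeR 4.0.16 in R 4.3.3 (filterByExpr with a minimum count of 10, TMM scaling, group and batch terms, quasi-likelihood test, Benjamini-Hochberg adjustment). SEs are the fold change over the square root of F. The script was tested on simulated data. Alternatives were DESeq2 1.42.0, its size factors, no filter, no batch term, the outlier put back, each batch alone and each replicate left out. Left-out fits kept the dispersion trend of the full fit. Named genes were the 5 members and, for each, the 5 genes with the highest Pearson r over wild-type libraries (mean of at least 20 CPM, ribosomal protein, mitochondrial and unnamed genes passed over), and for each list those with the smallest adjusted p. The members and lists were chosen with earlier results of these data known.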

Additional observations from a re-analysis of the deposited data

Results flagged for a closer look

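In 9 of the 29 combinations of gene and group with 4 to 10 libraries, the highest library stood far from the others by Dixon's criterion. Chance meets it in about 1 of 20 groups of normally distributed values. CPM near the floor are not so distributed, and a group with counts in only 1 library always meets it, so that rate does not apply here. In wild type these were Ly6d in ILC2P replicate 1 (69.05 CPM, from 2 counts), Ly6e in CLP replicate 7 (2778.38 CPM), Ly6c1 in ILC2P replicate 7 (247.352 CPM) and CILP replicate 3 (23.8002 CPM, from 3 counts), and Ly6c2 in ILC2P replicate 3 (133.329 CPM) and CILP replicate 6 (195.807 CPM). In TCF7-/- they were Ly6a and Ly6c2 in CILP replicate 4 (106.716 and 444.649 CPM) and Ly6c1 in CLP replicate 1 (17.8814 CPM, from 2 counts).

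Signal was also present in libraries outside the comparisons. The 2 ILC2P libraries labelled Nfil, set aside by the labels, had 853.825 and 342.358 CPM of Ly6a, and the second had 228.239 CPM of Ly6c1. Only values above the highest control well were flagged, which for Ly6d had 10309.3 CPM from 4 counts. Ly6d was thus not flagged in the Nfil CLP libraries (1112.52 and 2255.34 CPM) or the outlier (148.655 CPM). The 12 control wells, with 51 to 9439 counts each, also held 17 counts of Ly6e in 3 wells and 2 of Ly6a in 1 well. They held 0 of Ly6c1 and Ly6c2. The source of these reads was not tested.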

How the results depend on the processing

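No paired analysis was possible because the replicate numbers were given in accession order and name no shared animal, day or batch. Ly6a in CILP against CLP, ILCP against CILP and ILC2P against CILP, and Ly6d in ILC2P against CLP and a4b7 CLP, passed under every alternative run. The count of members called moved as follows, and the cause was not tested. The share of all genes called under each setting is not given beside these counts, so they are no result about the Ly6 genes in particular. With batch 2 alone it was 1 for CILP against CLP, ILC2P against CLP and ILC2P against a4b7 CLP, and 0 for ILCP against CLP, CILP against a4b7 CLP, ILCP against a4b7 CLP and TCF7-/- ILC2P. With batch 1 alone it was 0 for CILP against a4b7 CLP, which DESeq2 size factors put at 1. Without a filter it was 2 for ILCP against CLP, ILCP against CILP and ILC2P against CILP, 3 for ILCP against a4b7 CLP, and 1 for ILC2P against ILCP, TCF7-/- CILP, Id2-/- CILP and the TCF7-/- step. DESeq2 gave 2 for ILCP against CLP and ILC2P against CILP and 3 for ILCP against a4b7 CLP. No batch term gave 0 for ILCP against a4b7 CLP, and the outlier put back gave 2 for ILCP and for ILC2P against CILP. Leaving out 1 replicate gave 0 to 2 for ILCP against CLP, ILCP against a4b7 CLP and TCF7-/- ILC2P, and 1 to 2 for CILP against a4b7 CLP and for ILCP and ILC2P against CILP. Batch 1 holds no TCF7-/- ILC2P library and batch 2 no Id2-/- library, so those fits could not be made. Counts of 1 to 3 per library limit Ly6c1 before ILCP and Ly6d in ILC2P.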
